A study of Mus musculus with 32 samples.

Results

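The samples described here are colonoids of 4 mice, BR7, BR8, BR9 and BR10, each analysed untreated (UT) and after bethanechol (Bch), and they were taken from the mouse count table by the mouse number in the sample name. They make up 16 of the 32 libraries of that table, because every mouse and treatment was sequenced as technical replicates TR1 and TR2. The technical replicates were added up, which left 4 UT and 4 Bch sums, and each Bch sum was compared with the UT sum of its own mouse.

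Bethanechol is a stable choline ester that activates muscarinic acetylcholine receptors. On epithelial cells the prevailing muscarinic receptor couples to Gq, phospholipase C and calcium release, and its signalling can reach the EGF receptor. In the colonic crypt, Lgr5-positive stem cells divide at the base and give rise to absorptive colonocytes and to the secretory lineage, which includes goblet, enteroendocrine and tuft cells.

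Crypts were taken from proximal colon, and the mice were of the strain Lgr5-EGFP-IRES-CreERT2, which express EGFP and an inducible Cre from the Lgr5 locus, and all groups carry this allele. Organoids were grown in Matrigel with L-WRN medium, a conditioned medium that holds Wnt3a, R-spondin and noggin, so that UT and Bch cells alike received these stem cell factors. Bch was given at 250 nM and renewed with the medium every day for 4 days. The methods of the study describe sorted Lgr5-EGFP+ cells, whereas the source label of these samples reads colonic organoids, and 3000 sorted cells are labelled per library, except for 2401 in UT mouse 9. No sex or age is labelled for these mice. The other 4 mice of the table, BR1 to BR4, are labelled male and sorted Lgr5+ cells, were given the same dose for as long, and enter only the comparison of the responses.

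The 16 libraries held 506550 to 2119938 unique molecular identifiers (UMIs, tags that count RNA molecules), and the 8 sums 1066102 (Bch mouse 7) to 4050342 (Bch mouse 8). A gene with a count of 0 could be present at up to 2.81 CPM (counts scaled to a common library total) in the shallowest sum and 0.741 CPM in the deepest, a limit that covers counting error only. The technical replicates were not independent draws and may hold the same molecules, in which case the sums count some molecules repeatedly. The limit of a single library is up to 5.92 CPM. Among genes with 5 to 20 UMIs, counts of TR1 and TR2 differed by 0.605 to 0.748 times the binomial variance, and with 200 to 1000 UMIs by 7.98 to 61.0 times. The TR2 to TR1 ratio of a gene recurred across the 8 sums, and 39 of 3163 genes differed over 2-fold, of which 32 were higher in TR2 and 22 encode ribosomal proteins. The cause was not tested. All 9 epithelial markers listed were tested, with summed levels of 8410 to 9620 CPM in UT and 8220 to 10800 CPM in Bch, while the immune markers summed to 2.39 to 8.22 CPM and the stromal, endothelial and glial markers to 0.938 to 8.81 CPM over both treatments. Xist, the RNA that silences an X chromosome, lay at 45.5 to 160.0 CPM of all UMIs and the Y-linked Eif2s3y at 2.39 to 8.56, against 11.9 to 25.9 and 38.7 to 64.8 in BR1 to BR4.

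The response of each gene to Bch was fitted in edgeR (quasi-likelihood) with the mouse as a block. Of 9515 genes tested, 0 passed a Benjamini-Hochberg adjusted p of 0.05 (0.0%), and the lowest adjusted p was 0.177. At an unadjusted p under 0.05, 236 genes were higher (2.48%) and 124 lower (1.3%) with Bch. A further count used the direction in single mice. Bch exceeded UT in 4 of 4 mice for 543 genes (5.71%) and lay below it for 536 (5.63%). The lowest Bch sum exceeded the highest UT sum for 117 genes (1.23%), and the reverse held for 87 (0.914%). These percentages are the background against which the gene groups below are read, and because no gene passed the adjusted threshold, every gene below is given by its values.

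The precision that these 4 pairs gave depended on the level of the gene. The 95% confidence interval of the fold change lay within 2-fold in either direction for 7729 of the 9515 genes (81.2%). Of 1699 genes at 100 CPM or more, 1691 (99.5%) lay within 2-fold and 1663 (97.9%) within 1.5-fold. Below 20 CPM, 2744 of 4477 genes (61.3%) lay within 2-fold and 119 (2.66%) within 1.5-fold. A change of more than 2-fold that all mice share was therefore outside the interval for nearly every abundant gene, and remained within it for many weak ones.

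**Figure D1:**
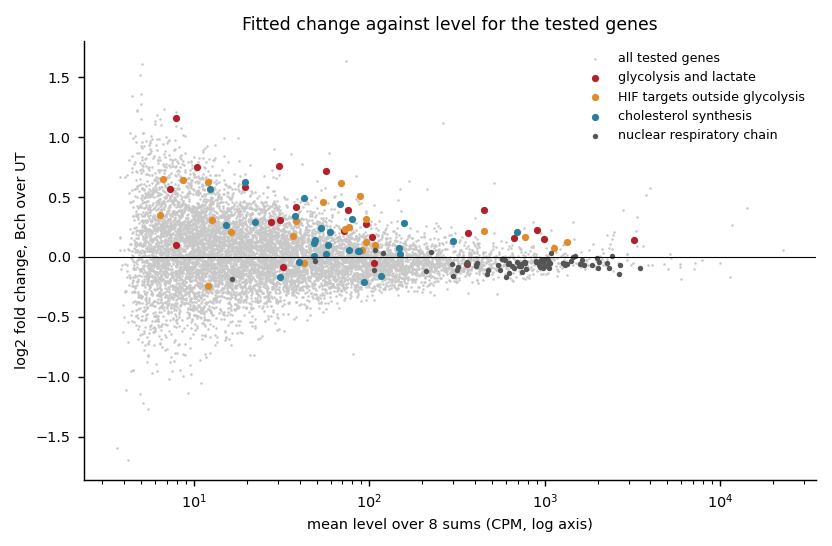
Log2 fold change of Bch over UT (vertical axis) against the mean level over the 8 sums in CPM (horizontal axis, logarithmic) for the 9515 tested genes (grey), with 4 gene lists coloured. Most genes of the glycolysis (20 of 23), HIF (21 of 23) and cholesterol (23 of 27) lists lie above 0, and 70 of 77 nuclear respiratory chain genes lie slightly below it. Of all tested genes 4714 lie above 0 and 4801 below, and the 1699 genes at 100 CPM or more have a median of -0.0491.

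Among the 22 gene lists with at least 8 tested genes, that of glucose uptake, glycolysis and lactate export had the highest median log2 fold change with Bch. This pathway takes up glucose, splits it to pyruvate and exports the excess as lactate. Of 27 listed genes 23 were tested, of which 8 were higher and 0 lower at an unadjusted p under 0.05, and 4 were higher without mouse 7. In 4 of 4 mice 9 of the 23 were higher and 0 lower, and 3 did not overlap between the groups. The median log2 fold change was 0.27, against -0.0022 over all tested genes, and the median ratio within a mouse was 0.42, 0.133, 0.357 and 0.365 in mice 7, 8, 9 and 10, against -0.0113, 0.0082, 0.00936 and -0.0203 over all tested genes. Above 0 lay 18, 18, 20 and 16 of the 23 genes in these mice.

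The entry and the exit of the pathway stood out. Slc2a1, which encodes the glucose transporter GLUT1 (GRCm38 chr4:119108711-119137983), was at 21.6, 20.2, 27.0 and 19.3 CPM in UT mice 7, 8, 9 and 10 and at 54.8, 33.1, 38.3 and 28.6 CPM in the same mice with Bch. Every Bch sum exceeded every UT sum. The means were 22.0 ± 3.45 and 38.7 ± 11.4 CPM (SD, n = 4 mice), with a log2 fold change of 0.76 (95% interval 0.33 to 1.19). Slc16a3, which encodes the lactate exporter MCT4 (chr11:120948480-120960868), was at 38.0, 48.0, 42.5 and 35.8 CPM in UT and at 112, 53.5, 58.8 and 61.1 CPM in Bch. Here too the groups did not overlap, although mouse 8 moved little. The means were 41.1 ± 5.39 and 71.3 ± 27.2 CPM (SD, n = 4), with a log2 fold change of 0.72 (0.34 to 1.09), and without mouse 7 it was 0.47. Bch mouse 7, the highest value of both genes, was the shallowest sum (1066102 UMIs). With every sum thinned to that total in 1 random draw, the log2 fold change was 0.71 for Slc16a3 and 1.34 for Slc2a1, the latter over 1.5 times its value without thinning.

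Between entry and exit, the enzymes that commit glucose to the pathway were also higher in 4 of 4 mice. Hk2, a hexokinase, was at 48.8, 77.1, 78.5 and 59.6 CPM in UT and at 77.6, 85.2, 81.9 and 98.5 CPM in Bch, with a log2 fold change of 0.39 (0.06 to 0.72). Its change in mice 8 and 9 was small, the groups overlapped, and without mouse 10 the value was 0.26. Hk1, another hexokinase, had a log2 fold change of 0.58 (0.05 to 1.11), which was 0.28 without mouse 7. The phosphofructokinases Pfkp and Pfkl had log2 fold changes of 0.42 (0.03 to 0.81) and 0.27 (-0.03 to 0.57). Both kinds of enzyme add a phosphate to the sugar.

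The enzymes of the middle and the end of the pathway varied more. Eno3, an enolase, was at 5.07 to 10.5 CPM in UT and 8.68 to 22.3 CPM in Bch, with a log2 fold change of 0.75 (0.08 to 1.42) and the same direction in 4 of 4 mice. Pgam1, phosphoglycerate mutase, was at 2.53 to 7.82 CPM in UT and 9.35 to 13.4 CPM in Bch without overlap, and its log2 fold change was 1.16 (0.39 to 1.93). Gapdh was at 370, 428, 288 and 466 CPM in UT and 328, 538, 651 and 537 CPM in Bch, higher in 3 of 4 mice, and its log2 fold change of 0.39 was 0.13 without mouse 9. The last 2 genes are uncertain, since 45.1% of the read-length sequences near the 3′ ends of Pgam1 and 41.1% of those of Gapdh also occur in other annotated transcripts. Abundant members are given next. Ldha, lactate dehydrogenase A, averaged 3082 ± 325 CPM in UT and 3387 ± 309 CPM in Bch (SD, n = 4), higher in 2 of 4 mice, and Pkm, pyruvate kinase, had a log2 fold change of 0.23 (-0.07 to 0.52).

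**Figure D2:**
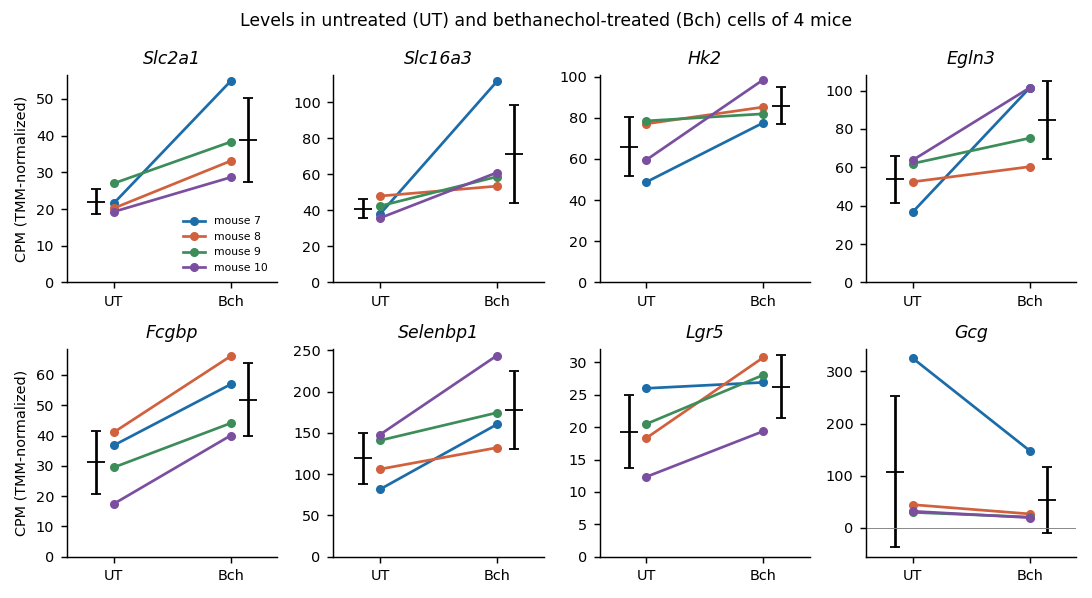
Levels in TMM-normalized CPM (vertical axis, a linear scale for each gene) of 8 genes in UT and Bch sums, 1 line per mouse, with the mean and SD over 4 mice in black. Slc2a1 and Slc16a3 do not overlap between the treatments, Gcg is lower with Bch in each mouse despite the high level of mouse 7 (325 CPM in UT), and mouse 7 also gives the highest Bch value of Slc2a1 and Slc16a3.

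Many glycolysis genes are known targets of HIF-1, the transcription factor that is stabilized at low oxygen. A list of HIF targets outside glycolysis, which also holds Hif1a itself, had 23 tested genes. Of these 4, Hif1a among them, were higher and 0 lower at an unadjusted p under 0.05, and 3 were higher in 4 of 4 mice. Their median log2 fold change was 0.23, but the medians of mice 7, 8, 9 and 10 were 0.54, -0.076, 0.11 and 0.29. In mouse 7, 22 of the 23 genes were higher with Bch, and in mouse 8 only 8 were. Without mouse 7 the median was 0.16 and 1 gene was higher at an unadjusted p under 0.05.

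Egln3, a prolyl hydroxylase that marks HIF for degradation (chr12:54178981-54203860), was at 36.8, 52.4, 62.0 and 63.8 CPM in UT and at 101, 60.3, 75.2 and 101 CPM in Bch. All 4 mice were higher with Bch, mice 7 and 10 by most, and the groups overlapped. Its means were 53.7 ± 12.4 and 84.6 ± 20.4 CPM (SD, n = 4), with a log2 fold change of 0.62 (0.27 to 0.97), and of 0.40 without mouse 7. Hif1a itself, which encodes the oxygen-regulated subunit, was weak, at 6.95 to 11.5 CPM in UT and 12.4 to 16.7 CPM in Bch, but without overlap, with a log2 fold change of 0.63 (0.01 to 1.24). Ddit4, an inhibitor of mTORC1 signalling, was at 66.6, 89.1, 89.5 and 96.6 CPM in UT and at 106, 111, 102 and 109 CPM in Bch, also without overlap. Ndrg1, a stress-induced gene, had a log2 fold change of 0.46 (0.10 to 0.82) and was higher in 3 of 4 mice.

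Other HIF targets separated the mice. Bnip3, which directs mitochondria to autophagy and is shown here after its values were seen, was at 63.4, 84.0, 70.5 and 56.3 CPM in UT and at 178, 55.9, 67.7 and 129 CPM in Bch. It was higher in mice 7 and 10 and lower in mice 8 and 9, with a log2 fold change of 0.51 (-0.63 to 1.65), and without mouse 8 it was at 0.892 (adjusted p = 0.0442 from edgeR). Car9, a carbonic anhydrase often used as a hypoxia marker, had a log2 fold change of 0.10, and Vegfa, the angiogenic growth factor, of 0.30, with higher levels in 2 and 3 of 4 mice.

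**Figure D3:**
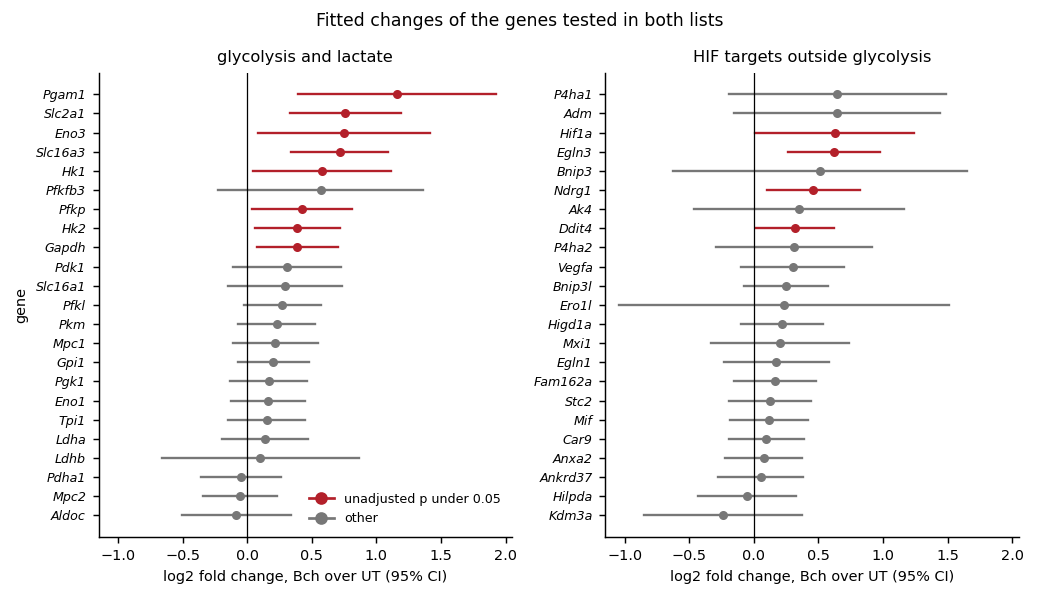
Log2 fold change of Bch over UT (horizontal axis) with its 95% confidence interval for the 23 tested genes of the glycolysis list (left) and the 23 of the HIF list outside glycolysis, which includes Hif1a itself (right), with genes at an unadjusted p under 0.05 in red. In the left panel 8 intervals lie above 0 and in the right panel 4, and no interval lies below 0.

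HIF binds the core ACGTG of the hypoxia response element, and the promoters of the 3 leading genes are shown because each holds this core, in capitals (on either strand it reads ACGTG or CACGT). The windows run from 250 bases before to 50 bases after the RefSeq start of the gene on GRCm38.p6, in the direction of transcription.
Slc16a3, chr11:120948817-120949116, plus strand: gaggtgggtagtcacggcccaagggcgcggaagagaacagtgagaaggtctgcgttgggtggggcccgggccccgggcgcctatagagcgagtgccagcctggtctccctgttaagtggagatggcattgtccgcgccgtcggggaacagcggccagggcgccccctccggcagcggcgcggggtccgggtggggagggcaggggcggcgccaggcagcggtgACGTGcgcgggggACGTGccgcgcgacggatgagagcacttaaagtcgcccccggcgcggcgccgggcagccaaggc
Slc2a1, chr4:119108495-119108794, plus strand: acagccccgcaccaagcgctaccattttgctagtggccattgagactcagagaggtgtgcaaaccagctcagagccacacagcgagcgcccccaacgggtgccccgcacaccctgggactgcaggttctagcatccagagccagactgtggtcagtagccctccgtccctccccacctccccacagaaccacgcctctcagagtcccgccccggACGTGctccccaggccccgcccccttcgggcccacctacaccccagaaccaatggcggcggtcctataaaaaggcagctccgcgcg
Egln3, chr12:54203825-54204124, minus strand: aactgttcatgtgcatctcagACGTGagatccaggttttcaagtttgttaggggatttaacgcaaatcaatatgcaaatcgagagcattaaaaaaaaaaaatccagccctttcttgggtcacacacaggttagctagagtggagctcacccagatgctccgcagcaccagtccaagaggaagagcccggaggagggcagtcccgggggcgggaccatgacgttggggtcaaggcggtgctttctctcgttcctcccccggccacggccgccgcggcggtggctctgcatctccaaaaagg
The core occurs in 12 of the 23 glycolysis promoters (52.2%), in 17 of 20 matched promoters of the HIF list (85.0%), in 31.1% of the 7086 tested genes with a window and in 21.8% of all 27025 windowed genes. The HIF list was written mainly from known HIF targets, and many glycolysis genes are such targets too, so both shares are properties of the lists. A match of 5 letters describes the window and does not by itself show binding, which was not tested.

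Genes of cholesterol synthesis and uptake had medians slightly above 0 in each mouse, and were 1 of 7 such lists among the 22 with at least 8 tested genes. The pathway builds cholesterol from acetyl-CoA through mevalonate and squalene and is regulated by SREBP2. Of 27 tested genes 5 were higher and 0 lower at an unadjusted p under 0.05, with a median log2 fold change of 0.135 and medians of 0.0629, 0.0526, 0.135 and 0.0685 in mice 7, 8, 9 and 10. Without mouse 8 and without mouse 9, 2 genes were higher at that p. Hmgcs1, which makes the precursor of mevalonate (chr13:119690379-119708260), was at 55.2, 79.6, 47.0 and 51.2 CPM in UT and at 72.4, 90.8, 72.1 and 76.6 CPM in Bch. It was higher in each mouse, and only UT mouse 8 overlapped with the Bch values. Fdft1, squalene synthase, had a log2 fold change of 0.28 (0.00 to 0.56, higher in 4 of 4 mice), Dhcr7, the last reductase of the pathway, of 0.62 (0.06 to 1.19, 3 of 4, and 0.30 without mouse 7) and Cyp51, lanosterol demethylase, of 0.32 (0.00 to 0.64, 3 of 4). Stard4, a sterol carrier, was lower in 4 of 4 mice at -0.21.

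The respiratory chain moved in opposite directions in different mice. Of 77 nuclear genes for its subunits, 0 were higher and 0 lower at an unadjusted p under 0.05. Their median log2 fold change was -0.058 (-0.155 without mouse 10 and -0.00566 without mouse 9). Below 0 lay 70 of the 77, against 4801 of the 9515 tested genes. The 1699 tested genes at 100 CPM or more had a median of -0.0491, close to that of this list. The medians of the list in mice 7, 8, 9 and 10 were -0.058, -0.19, -0.21 and 0.20. In mouse 8, 70 genes were lower with Bch, and in mouse 10, 60 were higher. The 8 tested genes of the mitochondrial genome followed the same order of mice, with medians of 0.008, -0.31, -0.60 and 0.61. mt-Nd1, a subunit of complex I encoded in the mitochondria, was at 6962, 6541, 6898 and 4697 CPM in UT and at 6947, 4252, 4432 and 6874 CPM in Bch. The mitochondrial share of all UMIs was 5.44 ± 1.17% in UT and 5.53 ± 1.31% in Bch (SD, n = 4), higher in 2 of 4 mice (two-sided exact permutation test within mice, p = 1.0, where 0.125 is the smallest p possible). For ribosomal protein genes the share was 15.3 ± 1.44% and 15.7 ± 1.35% (SD, n = 4; the same exact test, p = 0.875).

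Among markers of the crypt lineages, few had an unadjusted p under 0.05. The medians of the goblet list were 0.176, 0.018, 0.0077 and 0.326 in mice 7, 8, 9 and 10, so that in mouse 9 it lay below that of all genes. The goblet cell list had 22 tested genes, of which 2 were higher and 0 lower at an unadjusted p under 0.05, with a median log2 fold change of 0.16, which was 0.0427 without mouse 10. Fcgbp, a mucus protein (chr7:28071236-28120862), was at 36.8, 41.1, 29.5 and 17.5 CPM in UT and at 56.9, 66.2, 44.1 and 40.0 CPM in Bch. It was higher in each mouse, with ratios on the log2 scale of 0.62, 0.68, 0.57 and 1.16 and the largest in mouse 10, and the groups overlapped. Of its 3′-end sequences 14.2% also occur in the annotated gene 9530053A07Rik. Muc2, the main gel-forming mucin, was at 64.0, 93.5, 74.5 and 71.3 CPM in UT and at 91.0, 93.4, 105 and 125 CPM in Bch, level in mouse 8 and higher in the other mice. Zg16, another goblet product, was at 161, 17.1, 28.0 and 14.1 CPM in UT and 39.3, 17.4, 24.0 and 92.2 CPM in Bch, lower in mouse 7 and higher in mouse 10.

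Colonocyte markers had 19 tested genes, 2 higher and 0 lower at an unadjusted p under 0.05, and a median of 0.086, which was 0.0316 without mouse 10. Selenbp1, a selenium-binding protein of mature epithelium (chr3:94933056-94944758), was at 81.8, 106, 141 and 148 CPM in UT and at 160, 132, 175 and 244 CPM in Bch, above UT in each mouse, and its log2 fold change was 0.57 (0.28 to 0.86). Of its 3′-end sequences 32.2% also occur in Selenbp2, so the pair cannot be fully told apart. Cdhr5, a protocadherin of the brush border, had a log2 fold change of 0.47 (0.10 to 0.84) and was above UT in each mouse, in mouse 9 by 0.02.

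Enteroendocrine markers had medians of -0.258, -0.241, -0.451 and -0.000875 in mice 7, 8, 9 and 10, in mouse 10 above that of all genes, and the members diverged. Of 13 tested genes 1 was higher and 2 lower at an unadjusted p under 0.05, with a median log2 fold change of -0.066, which was 0.0179 without mouse 7. Gcg, which encodes proglucagon (chr2:62474530-62483650), was at 325, 44.2, 29.5 and 31.6 CPM in UT and at 148, 26.5, 20.5 and 19.4 CPM in Bch. It was lower in each mouse while mouse 7 lay far above the other mice in both groups, so the groups overlapped widely. Its log2 fold change was -0.81 (-1.16 to -0.47), and its adjusted p of 0.177 from edgeR's test was the lowest of all genes. It passed without mouse 9 (adjusted p = 0.0139 from edgeR) and without mouse 10 (adjusted p = 0.0191 from edgeR), and without mouse 7 it was at -0.66. Over all alternatives its adjusted p ranged from 0.00146 to 1.0, the lowest with technical replicates counted as separate libraries. Ghrl, which encodes ghrelin and is not in the list, was at 27.9, 13.3, 6.00 and 5.12 CPM in UT and at 10.3, 3.29, 3.56 and 4.63 CPM in Bch, also lower in 4 of 4 mice, with little difference in mouse 10. Scgn, the calcium-binding secretagogin, had a log2 fold change of -0.72 (-1.44 to 0.00), whereas Chgb, a granin of secretory granules, had one of 0.43 (0.09 to 0.77), which was 0.24 without mouse 7. The tuft cell list had 3 tested genes and its marker Dclk1 held 0 to 10 UMIs per sum, below what could be tested. Paneth cell markers had 4 tested genes and 0 at an unadjusted p under 0.05.

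The stem cell list had 16 tested genes, of which 1 was higher and 1 lower at an unadjusted p under 0.05, and a median of -0.0067. Lgr5, the R-spondin receptor whose locus carries the EGFP reporter (chr10:115450311-115587780), was at 26.0, 18.3, 20.5 and 12.3 CPM in UT and at 26.9, 30.7, 28.0 and 19.4 CPM in Bch. It was level in mouse 7 and higher in the other mice, with a log2 fold change of 0.49 (0.01 to 0.97) on 26 to 131 UMIs per sum. By the study's methods the cells were sorted on EGFP from this locus, so these levels would not be those of the whole culture. Ascl2, a transcription factor of the same stem cells (chr7:142966829-142969264), was at 213, 227, 300 and 290 CPM in UT and at 154, 197, 240 and 236 CPM in Bch. It was lower in each mouse, by -0.46, -0.20, -0.32 and -0.30 on the log2 scale, so these stem cell genes pointed in opposite directions. The Wnt feedback list had 8 tested genes, with a median of 0.24, which was 0.0991 without mouse 7, and 0 at an unadjusted p under 0.05. Axin2, a direct Wnt target, was higher in mice 7, 8 and 9 and lower in mouse 10, with a log2 fold change of 0.27 (-0.22 to 0.75). It was 0.14 to 0.62 with each mouse left out in turn, highest without mouse 10, and 0.057 with TR2 alone. Of 46 cell cycle genes 0 were higher and 0 lower at an unadjusted p under 0.05, with a median of -0.022. In mouse 10 40 of them were lower and in mouse 9 33 were higher. Mki67, the proliferation marker, had a log2 fold change of 0.35 (-0.05 to 0.75), between 0.20 without mouse 9 and 0.61 without mouse 10.

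**Figure D4:**
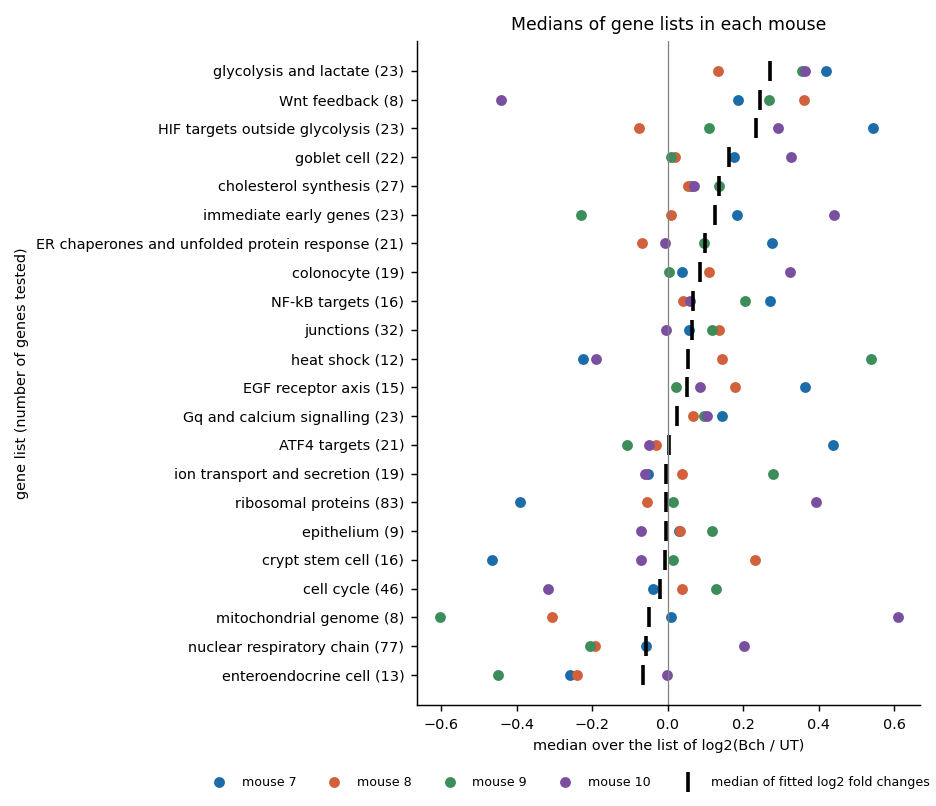
Median log2 ratio of Bch over UT (horizontal axis) over the tested genes of each list (vertical axis, number of genes in brackets), 1 dot per mouse, with the median of the fitted log2 fold changes as a black bar. The glycolysis list lies above 0 in each mouse (0.42, 0.133, 0.357 and 0.365), while the mitochondrial genome spans from -0.60 in mouse 9 to 0.61 in mouse 10.

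The receptors of Bch were barely detected. Of the 5 muscarinic receptor genes, Chrm1 and Chrm3 had a row in the table. Chrm1 held 0, 4, 5 and 3 UMIs in UT and 1, 5, 1 and 2 in Bch, and Chrm3 held 0, 0, 0 and 4 UMIs in UT and 2, 0, 0 and 2 in Bch. Neither could be tested at this depth, where a count of 0 allows up to 2.81 CPM in the shallowest sum. Chrm2, Chrm4 and Chrm5 were not analysed here.

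Downstream of the receptor, the medians of the Gq and calcium list were 0.143, 0.0661, 0.0966 and 0.104 in mice 7, 8, 9 and 10, and those of the EGF receptor list 0.363, 0.178, 0.0223 and 0.0864. Many genes of both lists were weak, and all 4477 tested genes under 20 CPM had a median log2 fold change of 0.0619. The lists had lower ones, 0.026 for Gq and calcium and 0.050 for the EGF receptor. The Gq and calcium list had 23 tested genes, 0 of them higher or lower at an unadjusted p under 0.05, a median of 0.026 (0.125 without mouse 9) and 3 genes higher in 4 of 4 mice. Stim1, the calcium sensor of the endoplasmic reticulum, and Atp2a2, which pumps calcium back into it, had log2 fold changes of 0.66 (-0.02 to 1.34) and 0.32 (-0.07 to 0.72), each higher in 4 of 4 mice, but Stim1 was at 0.17 without mouse 10. Of 15 genes of the EGF receptor axis 0 were higher or lower at that p. Btc, the ligand betacellulin, had a log2 fold change of 0.72 (0.00 to 1.45), and Dusp6, a feedback phosphatase of ERK, was at 5.69 to 8.24 CPM in UT and 8.90 to 11.8 CPM in Bch without overlap, with a log2 fold change of 0.60 that was 1.77 with counts thinned. Of 23 immediate early genes 1 was higher, the AP-1 subunit Fosl1 (1.02, 0.24 to 1.79, 3 of 4 mice, and 0.67 without mouse 9), and 1 lower, Ier2 (-0.31, -0.60 to -0.03, lower in 4 of 4 mice). The ion transport list had 19 tested genes, a median of -0.0046 and 0 at that p, with Slc12a2, the chloride importer used in secretion, at 0.24 (-0.04 to 0.52).

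Further lists of stress and structure held few genes at an unadjusted p under 0.05. Of 16 NF-kB targets 2 were higher and 0 lower, Cxcl16, a membrane-bound chemokine, and Plk2, a stress kinase. Cxcl16 was at 43.1, 48.7, 44.5 and 38.2 CPM in UT and at 108, 49.5, 56.5 and 61.1 CPM in Bch, without overlap but with little change in mouse 8, and its log2 fold change of 0.58 was 0.36 without mouse 7. Plk2 had a log2 fold change of 0.66 (0.22 to 1.10), or 0.38 with counts thinned, and was higher in 4 of 4 mice. Of 21 chaperones and unfolded protein response genes 2 were higher and 0 lower. Hspa5, the main chaperone of the endoplasmic reticulum, was at 351, 409, 304 and 331 CPM in UT and at 688, 392, 348 and 384 CPM in Bch. Mouse 7 carried this difference, and without it the log2 fold change was 0.12 in place of 0.32. Canx, calnexin, had a log2 fold change of 0.30 (0.01 to 0.58). Of 32 junction genes 1 was higher, the tight junction scaffold Tjp3 (0.37, 0.01 to 0.74), and 0 were lower. Among 21 ATF4 targets and 12 heat shock genes 0 were higher or lower at that p, and their medians were 0.0036 and 0.054.

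Outside the lists, the genes with the smallest p among those that moved alike in 4 of 4 mice included several of low level. H1f5, a linker histone made in S phase, was at 197, 191, 111 and 190 CPM in UT and at 214, 245, 196 and 367 CPM in Bch, with a log2 fold change of 0.57 (0.28 to 0.86). Cul5, a scaffold of ubiquitin ligases, was at 8.21 to 13.9 CPM in UT and 18.3 to 32.1 CPM in Bch without overlap, with a log2 fold change of 0.99 (0.45 to 1.54). Ppp1r10, a regulatory subunit of a nuclear phosphatase, went from 5.71, 5.69 and 8.00 CPM to 15.5, 16.4 and 24.0 CPM in mice 7, 8 and 9, and was at 21.1 and 21.5 CPM in mouse 10. Its log2 fold change of 0.99 was 1.52 without mouse 10. Rab8b, a GTPase of vesicle transport, had a log2 fold change of 1.61 (0.62 to 2.61), on 4 to 5 UMIs in UT and 11 to 20 in Bch. Gm2830, a processed pseudogene that shares 3′-end sequence with Rps24, was at 31.7, 19.6, 22.0 and 17.5 CPM in UT and 111, 36.6, 22.7 and 25.7 CPM in Bch, and its log2 fold change of 0.86 was 0.515 without mouse 7.

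The lower genes of this rule were Gcg and Ghrl, described above, and 8 others. Lpar6, a receptor for lysophosphatidic acid, was at 30.4, 24.0, 39.5 and 21.1 CPM in UT and at 9.31, 20.9, 11.6 and 19.8 CPM in Bch, without overlap but with little change in mice 8 and 10, and its log2 fold change of -0.82 was -0.50 without mouse 9. Exoc7, a subunit of the exocyst, had a log2 fold change of -0.62 (-1.04 to -0.21), Zfp560, a zinc finger gene, of -0.60 (-1.02 to -0.18) and Fam174c of -0.66 (-1.12 to -0.20), or -1.02 with counts thinned. These 3 genes did not overlap between the groups, with Zfp560 at 32.3 to 41.0 CPM in UT and 21.4 to 27.4 CPM in Bch and Fam174c at 22.8 to 35.4 and 12.4 to 22.3 CPM. Ndc80, a kinetochore protein, was at -0.68 (-1.16 to -0.20) and Gm20604 at -0.67, or -0.38 with counts thinned. Nbas, which acts in transport from the Golgi to the endoplasmic reticulum, was at 4.82 to 8.21 CPM in UT and 0.00 to 4.46 CPM in Bch without overlap, on 0 to 19 UMIs per sum, and Eif2ak4, a kinase that senses amino acid shortage, was at 3.80 to 6.95 CPM in UT and 0.00 to 4.93 CPM in Bch.

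Some genes differed over 2-fold in single mice, and they are described among genes that had at least 50 UMIs in either sum and passed 2-fold in both technical replicates. Their number per direction is not read, because a gene enters through the sum where it is high and the deeper sum admits more genes. In mouse 8, where the Bch sum held 2.5 times the UMIs of the UT sum, all 98 higher genes had under 50 UMIs in UT. Gm6654 and Rn7sk were higher in mice 7 and 10, Ppp1r10 was higher in mice 8 and 9, and Ugt2b35, a glucuronosyltransferase, was lower in mice 8 and 10.

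Several of the single-mouse differences concerned ribosomal and nuclear RNAs. Gm6654, a processed pseudogene that shares 34.5% of its 3′-end sequences with Rps26 and related copies, was at 16.5, 25.3, 45.0 and 34.3 CPM in UT and at 209, 47.4, 36.1 and 172 CPM in Bch. Rps26, a protein of the small ribosomal subunit, was also highest in Bch mice 7 and 10, at 3012, 2978, 3246 and 2965 CPM in UT and 6096, 3189, 3010 and 7348 CPM in Bch, so that Bch mice 7 and 10 stood apart from the other 6 sums. Rn7sk, a small nuclear RNA that regulates transcription elongation, reached 1091 CPM in Bch mouse 7 against 50.6 to 206 CPM in UT. Of its 3′-end sequences 66.3% occur in other annotated copies. The nuclear RNAs Xist, Malat1 and Neat1 were over 2-fold lower with Bch in mouse 9 and over 2-fold higher in mouse 10. Malat1 was at 1516, 1624, 2969 and 935 CPM in UT and at 2754, 1142, 1111 and 2219 CPM in Bch, and Xist at 104, 92.9, 159 and 43.6 CPM and at 84.8, 76.1, 55.2 and 117 CPM. Duoxa2, the maturation factor of an oxidase that makes hydrogen peroxide, went from 11.4 to 97.3 CPM in mouse 7 and lay between 16.2 and 27.8 CPM in the other 6 sums.

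The responses of different mice were related weakly or inversely. Over 2900 genes with at least 50 CPM, the log2 ratios of Bch over UT had a Pearson correlation across genes of 0.397 between mice 8 and 9, of -0.206 between mice 8 and 10 and of -0.309 between mice 9 and 10. Those of mouse 7 with mice 8, 9 and 10 were -0.0213, -0.0706 and -0.0158. Genes are not independent, and the values are a description. The SD over 1902 genes of the log2 ratio of Bch over UT was 0.32, 0.192, 0.285 and 0.337 in mice 7, 8, 9 and 10. Between UT sums of different mice the SD was 0.258 to 0.386, and between technical replicates, with the mean offset of each gene taken off, 0.0776 to 0.146. Without taking off that offset the SD between technical replicates was 0.747 to 0.79. The SDs of Bch over UT overlapped in range with those between UT cells of different mice, and separate cultures of the same mouse and treatment were not analysed here.

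**Figure D5:**
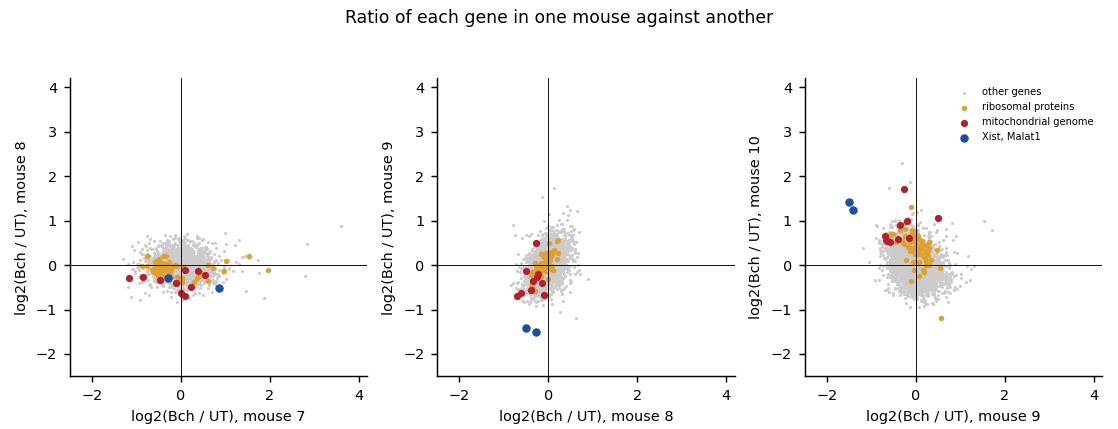
Log2 ratio of Bch over UT in one mouse (horizontal axis) against that in another (vertical axis) for 2900 genes with at least 50 CPM, 1 dot per gene, with ribosomal protein genes, genes of the mitochondrial genome and the nuclear RNAs Xist and Malat1 coloured. Mice 8 and 9 share a direction (r = 0.397), whereas mitochondrial genes, Xist and Malat1 lie to the left of 0 in mouse 9 and above 0 in mouse 10 for most genes (r = -0.309).

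Whether the response differed from that of mice BR1 to BR4 was tested as an interaction over all 16 sums with edgeR's quasi-likelihood test. Of 10280 genes 0 passed an adjusted p of 0.05 (0.0%) and 451 had an unadjusted p under 0.05 (4.39%). In BR1 to BR4 the log2 fold change was -0.15 for Slc16a3 and 0.19 for Slc2a1, against 0.72 and 0.76 here. It was 0.43 for Gcg and -0.66 for Lgr5, against -0.81 and 0.49. Cul5 was at -0.49 against 0.99 and Fam174c at 0.95 against -0.66. Other genes had point values above 0 in both sets, such as Dusp6 at 0.57 and 0.60, Gm2830 at 0.61 and 0.86 and Selenbp1 at 0.22 and 0.57. The genes set side by side here were chosen after their values were seen. None of these differences passed the adjusted threshold. The differences in log2 fold change were -1.25 for Gcg, 1.15 for Lgr5 and 0.86 for Slc16a3. The kit (RNeasy Mini here, RNeasy Plus Micro in BR1 to BR4), the source label, the labelled sex and the set cannot be told apart.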

How the data were processed

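Per the labels, RNA was extracted with the Qiagen RNeasy Mini kit. The authors aligned reads to GRCm38 with GENCODE M25 in the Drop-seq pipeline and deposited counts (UMIs per gene, without normalization) of 23517 genes in 32 libraries. Processing notes of the samples name GRCh38, the build that the study's methods give for its human data. Whether counting used the strand is not given in the sources used here, so overlapping genes (such as the 3 annotated at Slc2a1) can share UMIs. Blank TR2 cells of 1520 genes, with at most 12 UMIs in TR1, were read as 0. No column was left unmapped.

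Technical replicates were summed. Genes passed edgeR's filterByExpr, counts were TMM-normalized, and robust quasi-likelihood tests were fitted with the mouse as a block (R 4.3.3, edgeR 4.0.16), with DESeq2 1.42.0 and limma 3.58.1 as alternatives. Levels are TMM-normalized CPM except where they are said to be of all UMIs or summed over a list. A prior count of 2 entered the ratios within mice, standard errors are the log2 fold change over the square root of F, and intervals are 95%. Replicates are mice, and the tests pool the spread of each gene between the 4 mice with that of other genes. The p-values and intervals therefore do not rest on the 4 pairs of a single gene alone. A gene whose mice differ widely, such as Slc16a3, can still have a narrow interval. The pairing comes from the labels, and correlations of the paired deviations were 0.072, 0.164, -0.00224 and -0.0209 in mice 7, 8, 9 and 10.

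The samples and the 28 gene lists were chosen with earlier results of these data known, and 11 genes are in more than 1 list. Genes named are the 10 per direction with the smallest p among those alike in 4 of 4 mice, the leading 2 of each list, a fixed set of receptor and marker genes, the 3 most changed per direction and mouse, the 5 most abundant and the sex-linked genes. Further list genes, Malat1, Neat1 and Ugt2b35 were named after their values were seen. Positions come from GENCODE M21 (GRCm38), or from NCBI's GRCm38.p6 table, and shared sequence is the share of 65-base windows in the last 500 bases of the transcripts. Alternatives were other tools and size factors, no filter on low counts, no block, TR1 or TR2 alone, technical replicates as separate libraries, thinned counts, all 16 sums in one fit, no mitochondrial and ribosomal genes, each mouse left out, and the mean of technical replicates, which was added after seeing the data. Some genes of the lists are counted but not reported here by name. Steps were tested on simulated data.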

Additional observations from a re-analysis of the deposited data

Results flagged for a closer look

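Within groups of 4 sums, a level was marked where its gap to the nearest other value, over the range of the group, exceeded Dixon's critical value, which chance does in about 1 of 20 groups. Of 154 groups of the genes followed, 14 were marked, and 8 of them lie in mouse 7. In Bch mouse 7 these were Slc16a3 at 112 CPM (next 61.1), Gm2830 at 111 (36.6), Rab8b at 15.5 (5.89), Gcg at 148 (26.5), Chgb at 229 (102) and Hspa5 at 688 (392), and in UT mouse 7 Gcg at 325 (44.2) and Slc3a2 at 182 (211). In mouse 9 they were UT H1f5 at 111 CPM (190), UT Cebpb at 186 (156), UT Rps26 at 3250 (3010) and Bch Dusp6 at 8.9 (11.4). In UT mouse 10 they were Ppp1r10 at 21.1 CPM (8.0) and Fdft1 at 180 (133). Bch mouse 7 was the shallowest sum, with 1066102 UMIs, and with counts thinned to that total the log2 fold changes were 0.71 for Slc16a3, 0.79 for Gm2830, -0.89 for Gcg, 0.38 for Chgb, 0.40 for Hspa5 and -0.29 for Slc3a2, against 0.72, 0.86, -0.81, 0.43, 0.32 and -0.25. Rab8b was not tested there.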

How the results depend on the processing

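In 12 of the 16 alternatives 0 genes passed the adjusted threshold. Counting technical replicates as separate libraries gave 170 genes (1295 at an unadjusted p under 0.05, against 360), and that fit treats libraries of the same cells as independent. Leaving out a mouse gave 0 to 4 genes and 292 to 655 at an unadjusted p under 0.05. Without mouse 8 these were Bnip3, Duoxa2 and Gm23935, without mouse 9 Gcg, Gm2830, Gm6654 and Rps24-ps3, and without mouse 10 Gcg. DESeq2's Wald test gave 0 genes and 123 at an unadjusted p under 0.05. Without the replicate block (the pairing of sums by mouse) 0 genes passed and 309 had an unadjusted p under 0.05. The mean of the technical replicates in place of their sum, added after seeing the data, gave 0 and 279. For the difference between the sets, 1 gene, Gcg, passed with no filter on low counts and 0 without any one mouse or with DESeq2.

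The median of the glycolysis list was 0.187 to 0.367 over the 16 alternatives, with 3 to 13 genes higher and 0 lower at an unadjusted p under 0.05. The 13 came from separate libraries, where 10.0% of all genes were higher at that p, and without mouse 7 there were 4. The median was 0.16 to 0.331 for the HIF list and 0.0936 to 0.2 for the cholesterol list. Of 25 lists with tested genes, 15 changed the sign of their median in at least 1 alternative. These were the enteroendocrine, tuft, Paneth, stem cell, epithelium, EGF receptor, Gq and calcium, Wnt feedback, ion transport, cell cycle, chaperone, ATF4, heat shock, ribosomal protein and mitochondrial genome lists. Among those that kept it, leaving out 1 mouse gave medians of 0.00474 to 0.267 for immediate early genes and 0.0104 to 0.162 for NF-kB targets. Of 77 genes followed, 58 were tested in all 16 alternatives and the others in at least 9, and 73 kept their direction wherever they were tested. The exceptions, by their log2 fold changes with each mouse left out in turn, were mt-Nd2 (-0.354 to 0.012, above 0 without mouse 9), Xist (-0.719 to 0.299, above 0 without mouse 9), Ang4 (-0.0295 to 0.392, below 0 without mouse 7 or 10) and Vil1 (-0.0378 to 0.324, below 0 without mouse 9). Vil1 was also at -0.0841 with counts thinned to the shallowest sum. The cause was not tested.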

Other observations

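The 5 most abundant genes were mitochondrial or ribosomal RNAs, mt-Cytb and Txn1. CT010467.1, an annotated rRNA, averaged 12704 CPM in UT and 15845 CPM in Bch, higher in 3 of 4 mice, and the mitochondrial rRNAs mt-Rnr2 and mt-Rnr1 averaged 22342 and 10525 CPM in UT and 23282 and 12841 CPM in Bch. mt-Cytb, a subunit of complex III, averaged 11925 and 10770 CPM, and Txn1, thioredoxin, 10056 and 9795 CPM.

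Ribosomal protein genes split by mouse as well. Of 83 tested genes 67 were lower with Bch in mouse 7 and 75 were higher in mouse 10, with median log2 ratios of -0.39 and 0.39, and medians of -0.055 and 0.014 in mice 8 and 9. Against this, Rps26 and Rpl37a were both highest in Bch mice 7 and 10, Rpl37a at 4703 and 4680 CPM against 2679 to 3071 CPM in the other 6 sums. TR1 and TR2 differed in the ribosomal share (11.5% and 18.7% of the UMIs of UT), and the difference of Bch from UT was 0.472 and 0.459 percentage points in them.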
